A study of Homo sapiens with 12 samples.

Results

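SMARCA4 KO was examined for the change it had in common in 2 triple-negative breast cancer cell lines, the basal-like MDA-MB-468 and the mesenchymal-like MDA-MB-231. A gene was counted as common when 3 conditions held. It passed in an additive model of genotype with cell line as covariate (adjusted p under 0.05 and a log2 fold change beyond 0.5 in either direction), its mean moved the same way in both cell lines, and all 3 KO samples lay on that side of all 3 controls within each line. These conditions held for 125 of 11529 genes, of which 101 were higher and 24 lower in KO cells. The same KO against control contrast chose these genes, so their changes and p-values are given as a description.

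RNA sequencing covered 12 samples, 3 control and 3 KO of each cell line. Control samples are named WT in the titles, with a wild type genotype, and control in the descriptions. For its Western blots the study describes both parental cells and cells with a nontargeting CRISPR/Cas9 vector. Which vector the sequenced controls carried, if any, is not given in the sources used here. The change from the SMARCA4 guide and that from transduction, Cas9 and selection therefore cannot be told apart. KO cells of both lines carried the same guide RNA, cloned with Cas9 in the lentiCRISPR-v2 vector, and were selected with puromycin, so each KO sample is a transduced population and no single-cell clone is described. The labels do not say whether the samples of a group came from separate cultures, so the p-values measure only the spread between these samples, which may be technical. The values are log2(FPKM + 1), where FPKM is a fragment count scaled to transcript length and to the size of the library, and differences between group means of this value are log2 fold changes. A sample had 11293 to 11362 genes with a value above 0. The read depth is unknown, because the table holds no counts.

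SMARCA4 encodes BRG1, an ATPase of the SWI/SNF (BAF) chromatin remodelling complexes, which use ATP to slide or evict nucleosomes and so change how accessible promoters and enhancers are. SMARCA2 encodes the alternative ATPase, and the other subunits steer the complex to its sites. Genes of this complex are often mutated in human cancers, and remodelling by it is known both to open regulatory DNA and to keep some of it silent.

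The guide is shown because the KO cells of both lines carried it. It matched the GRCh37 genome exactly at 1 place, chr19:11095933-11095952 on the plus strand and next to a TGG PAM, across the junction of an intron and exon 3 of the MANE Select transcript of SMARCA4 (chr19:11095949-11096081). The labels count that exon as number 4 in another transcript. The first 16 bases lie in the intron and the last 4, in capitals, are exonic.
SMARCA4 guide: atggtccctctcgcagCCCA

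SMARCA4 (chr19:11071608-11190102, GRCh37) was lower in every KO sample than in every control of its line. SMARCA4 was at 6.61, 6.62 and 6.68 in the control and 5.35, 5.48 and 5.61 in the KO samples of MDA-MB-468, and at 6.10, 6.18 and 6.09 in the control and 4.46, 4.64 and 4.56 in the KO samples of MDA-MB-231. The nearest control and KO samples were 1.01 apart in MDA-MB-468, against 1.45 in MDA-MB-231. The additive change was -1.37 (SE 0.08, adjusted p = 5.7e-06), and mean FPKM in KO cells was 44.3% of control in MDA-MB-468, against 32.7% in MDA-MB-231. The fall was smaller in MDA-MB-468, with a difference between the lines of 0.41 (95% confidence interval 0.18 to 0.64, adjusted p = 0.027). No other SWI/SNF subunit was common to both lines. Of 24 measured subunit genes SMARCA4 alone passed the additive test, PHF10 lay below the controls in both lines with a change within the limit (-0.28), and SMARCB1 lay above them in MDA-MB-468 (0.25) and below them in MDA-MB-231 (-0.21).

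Identity of the lines was checked on markers. Summed over 8 epithelial markers, the log2 level was 59.5 to 60.5 in the MDA-MB-468 samples and 31.1 to 34.1 in MDA-MB-231. Over the 7 measured of 8 mesenchymal markers it was 52.9 to 53.4 in MDA-MB-231, and in MDA-MB-468 it was 26.9 to 27.2 in control and 28.6 to 30.4 in KO cells. CDKN2A, which is deleted in MDA-MB-231, was listed at 0 in all samples of that line. Markers of fibroblasts and endothelial cells are not among the genes used here, and of 5 leukocyte markers 1 was measured (CD14), at 4.4 to 6.0 in MDA-MB-468, against 0.84 to 2.6 in MDA-MB-231. The mesenchymal sum was higher in every KO sample than in the controls of MDA-MB-468, as CD14 was in MDA-MB-231. Their part in the results was not tested. Within the sum, the mean change in MDA-MB-468 was 1.44 for CAV1, 0.70 for TGFBI and 0.42 for VIM. ZEB1 (0.11), AXL (0.04) and MSN (0.02) changed little there, and CD44 was slightly lower (-0.12). In MDA-MB-231, VIM (-0.39), AXL (-0.28) and MSN (-0.24) were lower in every KO sample than in every control. TGFBI (0.66) and CD44 (0.30) had a higher mean after KO in that line, and CAV1 (-0.03) and ZEB1 (0.02) changed little. CD44, listed as a marker of MDA-MB-231, was higher in MDA-MB-468 (9.55 to 9.91) than in MDA-MB-231 (8.76 to 9.27). In a bulk sample, a change in the share of cells that express a gene and a change in RNA per cell cannot be told apart.

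The additive model called 166 genes, 1.44% of those tested, 130 of them higher (1.13%) and 36 lower (0.312%) in KO cells. Of these 166 genes, 125 also lay on the same side in both lines (1.08% of all genes, with 0.876% higher and 0.208% lower). Another 21 were separated from the controls in MDA-MB-468 only, 20 in MDA-MB-231 only, and 0 lay on opposite sides. The additive model averages the lines and works against genes on opposite sides, so this 0 largely follows from the model. Without regard to the model, 663 genes (5.75%) were separated from the controls on 1 side in both lines, 365 above (3.17%) and 298 below (2.58%). Nearly as many, 622 genes (5.4%), lay on opposite sides. Within 1 line, KO and control samples did not overlap for 31% of genes in MDA-MB-468, against 36% in MDA-MB-231. Across all genes, 48.1% changed with the same sign in both lines, and the Spearman correlation of the changes was -0.014 over genes, which are not independent replicates. The direction split depended on scaling: 78.3% of called genes were higher as deposited, 65.2% after quantile normalization, and 67.9% (76 higher, 36 lower) after correction for GC content and transcript length.

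**Figure D1:**
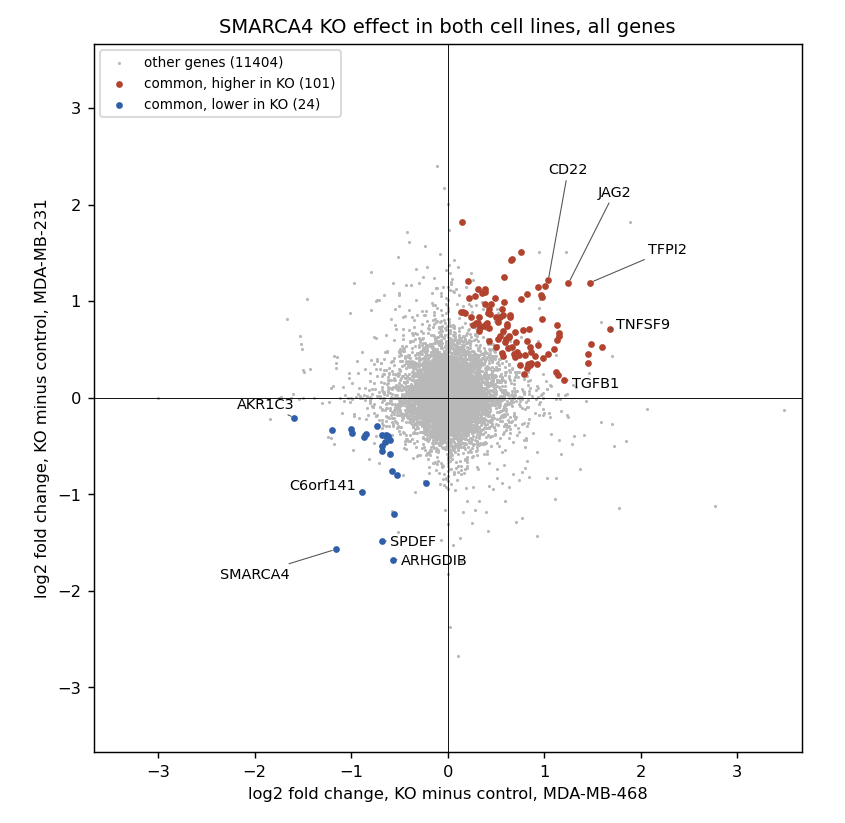
Change after SMARCA4 KO in MDA-MB-468 (x axis) and MDA-MB-231 (y axis) as log2 fold change, 1 point per gene. The 101 common higher genes (red) lie in the upper right and the 24 common lower genes (blue) in the lower left, while the 11404 other genes (gray) form a cloud with no diagonal trend.

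Common genes that were higher after KO had a median additive change of 0.68 (0.50 to 1.33), and the lower ones a median of -0.63 (-1.37 to -0.51). Both lines contributed: the change was larger in MDA-MB-468 for 61 of the 125 genes and in MDA-MB-231 for 64. It passed 0.5 in each line separately for 56 genes (47 higher, 9 lower), and 1 in each line for 5, namely TFPI2, JAG2, CD22, DMKN and SMARCA4. Fitted within its own line, with the same limits, a gene of the 125 was called in both lines in 24 cases, in MDA-MB-468 alone in 32, in MDA-MB-231 alone in 46 and in neither in 23. Those fits called 247 genes (2.14%) in MDA-MB-468, against 426 (3.7%) in MDA-MB-231, and the first count fell to 0 in limma without KO sample 2 or control sample 2, where 540 and 616 genes had an unadjusted p under 0.05 and a change over the limit. The count in MDA-MB-231 fell to 99 without its KO sample 2 and to 173 without its KO sample 1, so the order of the lines rests on single samples.

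TFPI2, a secreted inhibitor of serine proteases, had the largest additive increase. In MDA-MB-468, TFPI2 measured 2.39, 2.39 and 2.27 in controls and 3.01, 3.95 and 4.51 after KO, and in MDA-MB-231 5.10, 5.26 and 5.04 in controls and 6.36, 6.43 and 6.20 after KO. Its 3 KO samples of MDA-MB-468 were spread over 1.5 log2 units, whereas those of MDA-MB-231 spanned 0.22. The additive change was 1.33 (SE 0.19, adjusted p = 0.0028), and mean FPKM was 3.52-fold higher in MDA-MB-468, against 2.32-fold in MDA-MB-231. JAG2, a Notch ligand, was at a similar level in the controls of both lines. The MDA-MB-468 values of JAG2 were 1.66, 1.92 and 2.52 in control and 3.37, 3.36 and 3.12 in KO samples, and the MDA-MB-231 values 1.93, 2.58 and 2.48 and 3.81, 3.50 and 3.24. Its change of 1.22 (SE 0.15, adjusted p = 0.0017) was close to equal in the lines, with a difference of 0.07 (95% confidence interval -0.63 to 0.76). TNFSF9, the ligand of the costimulatory receptor 4-1BB, was separated in both lines, but unequally. Control samples of MDA-MB-468 held TNFSF9 at 2.50, 2.76 and 2.93 and KO samples at 4.07, 4.52 and 4.66, while in MDA-MB-231 controls were at 2.06, 1.81 and 1.81 and KO samples at 2.46, 2.77 and 2.59. The additive change was 1.20 (SE 0.17, adjusted p = 0.0033). It rose by 1.68 in MDA-MB-468, against 0.71 in MDA-MB-231, and this difference of 0.97 passed the test (95% confidence interval 0.49 to 1.45, adjusted p = 0.016).

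CD22, a sialic acid-binding lectin best known from B cells, was higher by like amounts in both lines. For CD22, MDA-MB-468 gave 1.45, 1.91 and 1.91 without and 2.49, 2.83 and 3.08 with KO, and MDA-MB-231 gave 2.37, 2.71 and 2.65 without and 3.94, 3.77 and 3.67 with KO. Its additive change was 1.13 (SE 0.11, adjusted p = 0.00043). PTK2B, a tyrosine kinase related to focal adhesion kinase, had control levels close to each other in the 2 lines. PTK2B was at 1.93, 2.32 and 2.30 in the control and 2.68, 3.19 and 3.62 in the KO samples of MDA-MB-468, and at 2.19, 2.29 and 2.32 in the control and 3.29, 3.37 and 3.28 in the KO samples of MDA-MB-231. Its change was 1.01 (SE 0.13, adjusted p = 0.0016). The KO samples of both genes stayed above every control of their line, with more spread in MDA-MB-468 for PTK2B.

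DMKN, the epidermal secreted protein dermokine, differed widely between the lines before KO. In MDA-MB-468, DMKN measured 5.77, 5.71 and 5.83 in controls and 6.80, 6.84 and 6.71 after KO, and in MDA-MB-231 1.42, 1.53 and 1.43 in controls and 3.12, 2.48 and 2.26 after KO. It rose by 1.09 (SE 0.12, adjusted p = 0.00059), on top of control means of 53.6 FPKM in MDA-MB-468, against 1.75 FPKM in MDA-MB-231. AHNAK2, a large scaffold protein, had the opposite order of control levels. The MDA-MB-468 values of AHNAK2 were 1.87, 1.48 and 1.58 in control and 2.40, 2.66 and 2.78 in KO samples, and the MDA-MB-231 values 3.95, 4.18 and 4.08 and 5.28, 5.14 and 4.99. Its change was 1.02 (SE 0.09, adjusted p = 0.00018). C1QTNF1, a secreted relative of complement C1q, gained 1.04 (SE 0.12, adjusted p = 0.00087). FBXO2, which gives ubiquitin ligases a grip on N-glycosylated proteins, gained 0.89 (SE 0.15, adjusted p = 0.0075), A4GALT, the synthase of globotriaosylceramide, 0.77 (SE 0.08, adjusted p = 0.00043), and DNAAF3, an assembly factor of axonemal dynein, 0.74 (SE 0.10, adjusted p = 0.0028). The difference between lines did not pass the test for DMKN, AHNAK2, C1QTNF1, FBXO2, A4GALT or DNAAF3.

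SAA1, an acute-phase apolipoprotein, was abundant in MDA-MB-231. Control samples of MDA-MB-468 held SAA1 at 4.25, 4.81 and 4.83 and KO samples at 5.32, 5.28 and 5.75, while in MDA-MB-231 controls were at 7.98, 8.92 and 9.11 and KO samples at 9.87, 9.77 and 9.59. All KO samples exceeded the controls, by 0.94 (SE 0.18, adjusted p = 0.013) in the additive model. SAA2 (1.04) and the readthrough gene SAA2-SAA4 (0.74) were also common. These genes are near-identical neighbours on chromosome 11 (SAA1 at chr11:18287807-18291524, GRCh37), and reads could have been divided among them in counting, so their separate changes are uncertain. The same holds for RPL13AP20, a processed pseudogene of a ribosomal protein gene (0.94 (SE 0.12, adjusted p = 0.0019)). AL356740.1, which had no match in the annotation used, was separated by narrow gaps and was at 0 in one control of MDA-MB-231. Its change was 1.14 (SE 0.29, adjusted p = 0.041), and it missed the adjusted p threshold when any of 9 samples was left out.

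GDF15, a stress-responsive cytokine of the TGF-beta superfamily, was scarcely expressed in the MDA-MB-468 controls. For GDF15, MDA-MB-468 gave 0.45, 0.43 and 0.31 without and 1.22, 0.99 and 1.28 with KO, and MDA-MB-231 gave 1.57, 2.32 and 1.92 without and 3.43, 3.07 and 2.37 with KO. It gained 0.89 (SE 0.17, adjusted p = 0.011), and its mean in MDA-MB-468 went from 0.32 to 1.24 FPKM. Of the 125 common genes, 19 had both group means below 1 FPKM in a cell line, where log2(FPKM + 1) compresses a fold change.

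**Figure D2:**
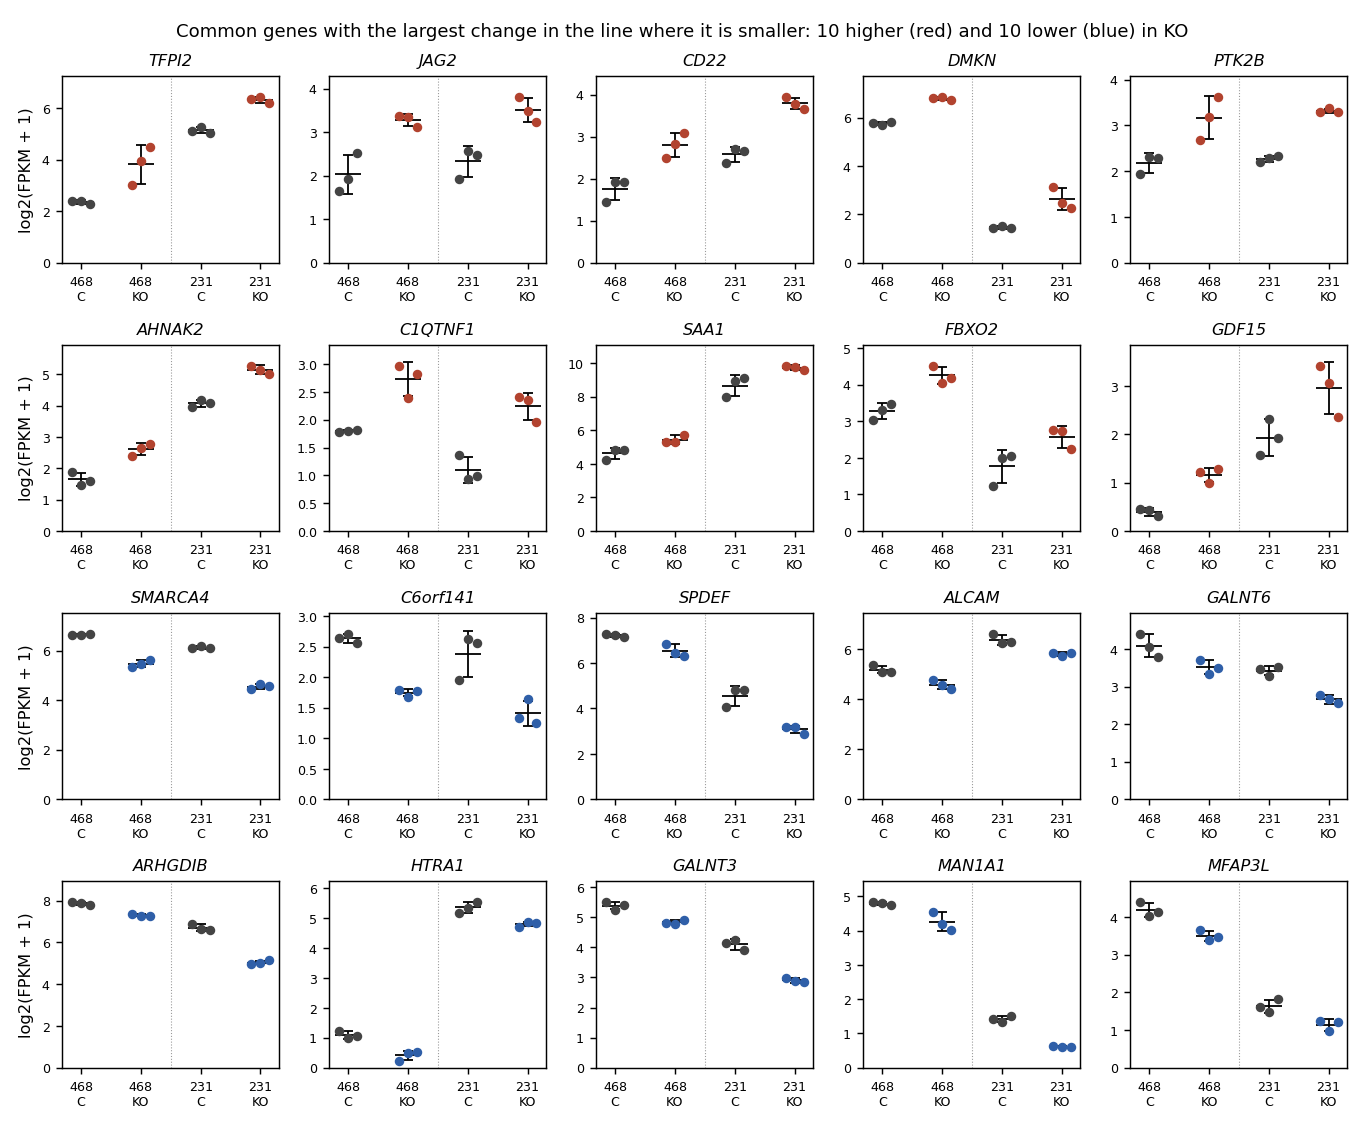
log2(FPKM + 1) in each of the 12 samples (points; C, control) for 10 common higher genes (red, top rows) and 10 common lower genes (blue, bottom rows), ranked by the smaller of their within-line changes; bars are the mean and SD of 3 samples. No KO point overlaps the controls of its line, while control levels of DMKN, HTRA1 and SAA1 differ by several log2 units between the lines.

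After SMARCA4 itself, the common lower gene that changed most in the line with its smaller change was C6orf141, whose function is little known. C6orf141 was at 2.65, 2.71 and 2.56 in the control and 1.79, 1.68 and 1.78 in the KO samples of MDA-MB-468, and at 1.96, 2.63 and 2.55 in the control and 1.34, 1.64 and 1.24 in the KO samples of MDA-MB-231. Its levels were alike in the 2 lines and fell by similar amounts, with an additive change of -0.93 (SE 0.11, adjusted p = 0.0011) and a difference of 0.08 (95% confidence interval -0.40 to 0.56). SPDEF, an ETS transcription factor of luminal and secretory epithelium, was also lower. In MDA-MB-468, SPDEF measured 7.28, 7.22 and 7.15 in controls and 6.85, 6.46 and 6.30 after KO, and in MDA-MB-231 4.05, 4.80 and 4.83 in controls and 3.17, 3.18 and 2.89 after KO. Its change was -1.08 (SE 0.18, adjusted p = 0.0056). The change was -1.48 in MDA-MB-231 and -0.68 in MDA-MB-468, but the difference did not pass the adjusted test (0.80, adjusted p = 0.07). ARHGDIB, which keeps small GTPases bound to GDP, did differ between the lines. The MDA-MB-468 values of ARHGDIB were 7.92, 7.90 and 7.77 in control and 7.36, 7.27 and 7.26 in KO samples, and the MDA-MB-231 values 6.90, 6.65 and 6.58 and 4.96, 5.01 and 5.14. Against an additive change of -1.12 (SE 0.17, adjusted p = 0.0038), the change was -0.57 in MDA-MB-468, against -1.68 in MDA-MB-231, a difference of 1.11 (95% confidence interval 0.83 to 1.38, adjusted p = 0.00051).

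Enzymes of glycan assembly were found among the common lower genes, a grouping made after the values were seen. GALNT3 and GALNT6 encode transferases that start mucin-type O-glycans. Control samples of MDA-MB-468 held GALNT3 at 5.50, 5.26 and 5.41 and KO samples at 4.83, 4.77 and 4.92, while in MDA-MB-231 controls were at 4.16, 4.25 and 3.90 and KO samples at 2.98, 2.89 and 2.83. For GALNT6, MDA-MB-468 gave 4.40, 4.05 and 3.80 without and 3.71, 3.34 and 3.48 with KO, and MDA-MB-231 gave 3.47, 3.29 and 3.52 without and 2.78, 2.66 and 2.55 with KO. KO samples were lower throughout, by -0.88 (SE 0.11, adjusted p = 0.0019) for GALNT3 and -0.67 (SE 0.10, adjusted p = 0.0039) for GALNT6. For GALNT3 the fall was larger in MDA-MB-231 (difference 0.65, adjusted p = 0.012). MAN1A1, a Golgi mannosidase that trims N-glycans, changed by -0.66 (SE 0.09, adjusted p = 0.0019). Other glycan enzymes went the other way: A4GALT (0.77) and ST6GALNAC2, a sialyltransferase (0.71), were common higher genes. Glycan enzymes as a class were not counted over all measured genes.

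Among surface and secreted proteins, ALCAM, the adhesion molecule CD166, had nearly the same change in both lines. ALCAM was at 5.35, 5.11 and 5.10 in the control and 4.79, 4.58 and 4.40 in the KO samples of MDA-MB-468, and at 6.61, 6.26 and 6.28 in the control and 5.83, 5.71 and 5.87 in the KO samples of MDA-MB-231. Its additive change was -0.59 (SE 0.08, adjusted p = 0.0029). HTRA1, a secreted serine protease, was low in MDA-MB-468 but abundant in MDA-MB-231. In MDA-MB-468, HTRA1 measured 1.22, 0.99 and 1.07 in controls and 0.23, 0.50 and 0.52 after KO, and in MDA-MB-231 5.18, 5.34 and 5.53 in controls and 4.71, 4.86 and 4.82 after KO. It changed by -0.62 (SE 0.08, adjusted p = 0.0015), MFAP3L, a protein related to a microfibril-associated protein, by -0.59 (SE 0.09, adjusted p = 0.0036), and TSPAN5, a tetraspanin, by -0.55 (SE 0.07, adjusted p = 0.0015). STS, steroid sulfatase, fell more in MDA-MB-468 (-0.64 (SE 0.09, adjusted p = 0.0021); difference -0.46, adjusted p = 0.019). CLGN, a chaperone of the endoplasmic reticulum, changed by -0.52 (SE 0.08, adjusted p = 0.0032), LMO4, a LIM-only transcriptional cofactor, by -0.51 (SE 0.07, adjusted p = 0.0022), and RP11-379F4.7, which had no match in the annotation, by -0.52 (SE 0.08, adjusted p = 0.0036). The last 3 were close to the limit of 0.5 and dropped inside it when single samples were left out.

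**Figure D3:**
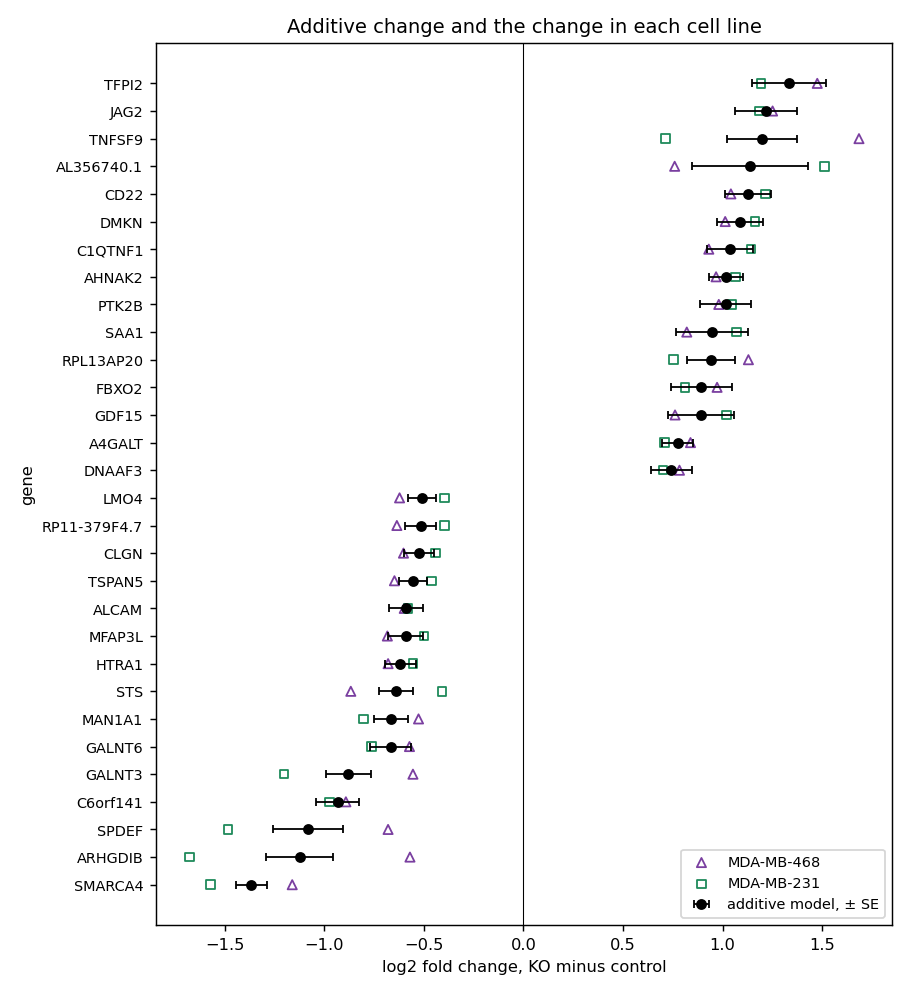
Additive log2 fold change with its SE (black) and the change in MDA-MB-468 (triangles) and MDA-MB-231 (squares) for the 15 common higher and 15 common lower genes with the largest change in the line where it was smaller. JAG2, ALCAM and C6orf141 have both line values within the error bar, and TNFSF9 and ARHGDIB have them far apart.

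The limit of 0.5 was a matter of hundredths for some genes. CLDN3, KRT80 and SYT8 were just inside it (each 0.50 when rounded), and ASIC3 (0.50), ABCC4 (0.50) and EXPH5 (-0.50) just outside.

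An interaction contrast tested each gene for a difference between the lines at any size of change. The selection did not use this contrast, but it rested on the same samples and left out genes that moved in opposite directions. The share among the common genes is therefore not independent of the choice and is given as a description. The contrast passed for 38 of the 125 common genes, against 14.7% of all genes (1699, or 924 without KO sample 2 of MDA-MB-468). The change was larger in MDA-MB-468 for 16 of these 38 and in MDA-MB-231 for 22. For the other 87 genes the difference did not pass, which does not show that the change was equal. For CD22 the difference lay between -0.68 and 0.33, and for TFPI2 between -0.54 and 1.11.

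Genes called within 1 line were also looked up in the other, since the lines share no sample. Of the 247 called in MDA-MB-468, 66 (26.7%) were separated on the same side in MDA-MB-231 and 43 (17.4%) on the opposite side. For all genes the shares were 17.5% and 18.6%. Of the 426 called in MDA-MB-231, 101 (23.7%) were separated on the same side in MDA-MB-468 and 73 (17.1%) on the opposite side, against 15.9% and 15.2% of all genes. No test was made of these shares.

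For contrast, 3 genes on opposite sides of the controls are given. TNC, the matrix glycoprotein tenascin C, is an example. The MDA-MB-468 values of TNC were 0.86, 0.85 and 1.05 in control and 1.93, 2.00 and 2.17 in KO samples, and the MDA-MB-231 values 5.38, 5.47 and 5.18 and 4.42, 4.20 and 4.27. Its change was 1.11 in MDA-MB-468, against -1.04 in MDA-MB-231, a difference of 2.16 (95% confidence interval 1.85 to 2.46, adjusted p = 1.1e-05). SOCS2, a suppressor of cytokine signalling, also rose in MDA-MB-468 (0.93) and fell in MDA-MB-231 (-1.44). ALDH3A1, an aldehyde dehydrogenase, fell in MDA-MB-468 (-0.97) and rose in MDA-MB-231 (1.19). Their additive changes were 0.03, -0.25 and 0.11, and an additive model cannot find such genes.

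Gene lists for 22 pathways and gene groups, 553 genes in all, held 14 of the 125 common genes, and 111 were in none. Of 16 measured keratins, the intermediate filament proteins of epithelia, 3 were called higher and 0 lower, and 5 lay above the controls in both lines (31.3% of the list, against 3.17% of all genes). The median additive change of the keratins was 0.26, and that of all genes 0.0045. KRT15, a basal keratin, is shown in full. Control samples of MDA-MB-468 held KRT15 at 6.36, 6.07 and 6.34 and KO samples at 6.89, 6.82 and 6.82, while in MDA-MB-231 controls were at 2.77, 2.78 and 2.61 and KO samples at 4.04, 4.00 and 3.85. Its additive change was 0.92 (SE 0.11, adjusted p = 0.0015), with a larger rise in MDA-MB-231 (difference -0.66, adjusted p = 0.0064). KRT17, also basal, changed by 1.02 (SE 0.27, adjusted p = 0.049). It was at 0.34 to 0.58 in the MDA-MB-231 controls, and the call was lost when any of 10 samples was left out. KRT80 changed by 0.50 (SE 0.10, adjusted p = 0.015), a call lost without any of 5 samples. KRT8 had a change of 0.46 and KRT16 one of 0.52 (adjusted p = 0.062), and neither KRT8 nor KRT16 passed both limits. After GC and length correction 1 keratin remained called.

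In the TGF-beta and BMP pathway, with 26 genes measured, 4 were called higher and 2 lower, 3 lay above and 2 below the controls in both lines, and 0 lay on opposite sides. Over all genes, 1.13% were called higher and 0.312% lower, 3.17% lay above and 2.58% below the controls in both lines, and 5.4% lay on opposite sides, and these shares are the background of the lists that follow. The median additive change of the list was 0.16. TGFB1, the ligand itself, rose mainly in MDA-MB-468. For TGFB1, MDA-MB-468 gave 2.90, 2.97 and 2.94 without and 4.17, 4.08 and 4.17 with KO, and MDA-MB-231 gave 5.17, 5.13 and 5.16 without and 5.32, 5.37 and 5.33 with KO. The rise was 1.20 there and 0.19 in MDA-MB-231, a difference of 1.02 (95% confidence interval 0.84 to 1.19, adjusted p = 3.3e-05). The latent TGF-beta binding proteins that passed went different ways. LTBP3 gained 0.67 (SE 0.15, adjusted p = 0.028), and LTBP1 changed by -0.61 (SE 0.12, adjusted p = 0.015). ID1, a target of BMP signalling, was higher in every KO sample than in the controls of its line. ID1 was at 5.12, 5.41 and 5.83 in the control and 6.23, 5.87 and 5.96 in the KO samples of MDA-MB-468, and at 6.75, 7.02 and 7.40 in the control and 8.06, 8.11 and 7.76 in the KO samples of MDA-MB-231. Its additive change was 0.74 (SE 0.14, adjusted p = 0.013). TGFBI (0.68) and TGFB3 (-0.72) were called, but their KO and control samples overlapped in MDA-MB-231. LTBP3 missed the adjusted p threshold without any of 4 MDA-MB-231 samples and after GC correction, and TGFB1 without 1 control of MDA-MB-468.

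Of 25 measured YAP/TAZ targets, 2 were called higher, IGFBP3 and TGFB1, and 0 lower; 2 lay above, 1 below (ANKRD1, -0.39) and 4 on opposite sides of the controls. By the sign of the mean change alone, 10 were higher and 3 lower in both lines, beside 25.1% and 22.9% of all genes, and the median additive change was 0.15. IGFBP3, a secreted binding protein of insulin-like growth factors, gained 0.67 (SE 0.11, adjusted p = 0.0065). Within MDA-MB-468 its rise of 0.43 was not called by limma (adjusted p = 0.145). There its lowest KO sample (8.304) lay barely above its highest control (8.299). CTGF had a change of 1.12 in MDA-MB-468, against -0.84 in MDA-MB-231, and this difference of 1.96 passed the test (adjusted p = 0.0045). AJUBA, FJX1 and NT5E were likewise on opposite sides of the controls, above them in MDA-MB-468. In the NF-kappaB list (22 measured), BIRC3, an inhibitor of apoptosis, gained 0.75 (SE 0.12, adjusted p = 0.0058), and TNFAIP2, a TNF-induced protein, 0.53 (SE 0.08, adjusted p = 0.0044); 0 were called lower, and the call of TNFAIP2 was lost without any of 4 samples.

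Epithelial and junction genes (30 measured) had 1 call, CLDN3, a tight junction protein (0.50 (SE 0.10, adjusted p = 0.015)), which was lost without any of 6 samples and after quantile normalization. JUP, LLGL2, OCLN and PKP3 were also above the controls in both lines, with additive changes of 0.33, 0.34, 0.27 and 0.22 that stayed within the limit, and 2 genes of the list lay on opposite sides. Of 18 mesenchymal genes, 2 were called higher (TGFBI and MYL9, 0.59), and 0 lay on the same side in both lines. Among 22 NRF2 and antioxidant targets 1 was called, AKR1C3, a reductase of steroids and other carbonyls. In MDA-MB-468, AKR1C3 measured 2.42, 2.59 and 2.56 in controls and 1.36, 0.95 and 0.51 after KO, and in MDA-MB-231 5.10, 5.31 and 5.16 in controls and 5.03, 5.07 and 4.84 after KO. Its change was -1.59 in MDA-MB-468, against -0.21 in MDA-MB-231, so the additive change of -0.90 (SE 0.23, adjusted p = 0.039) came mainly from MDA-MB-468. The call was lost without any of 8 samples.

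No gene passed the additive test in 11 of the 22 lists. Cholesterol synthesis was one of them: of 28 genes, 22 changed with opposite sign in the 2 lines and 6 lay on opposite sides of the controls, with a median change of 0.30 in MDA-MB-468, against -0.23 in MDA-MB-231. Of all genes, 50.1% had opposite signs. Cytosolic ribosomal proteins had opposite signs for 31 of 37 genes, with medians of 0.18 and -0.11. Of 36 cell cycle and replication genes, 0 were called by limma (9 at an unadjusted p under 0.05), 2 lay above and 2 below the controls in both lines. Interferon-stimulated genes had 0 calls of 29 (10 at an unadjusted p under 0.05). IFI35, IFIH1, IRF1 and ISG20 lay above the controls in both lines (additive changes 0.32, 0.31, 0.27 and 0.42), and 1 gene lay below. Signs were opposite for 17 of the 29, with a median change of -0.05 in MDA-MB-468, against 0.24 in MDA-MB-231.

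**Figure D4:**
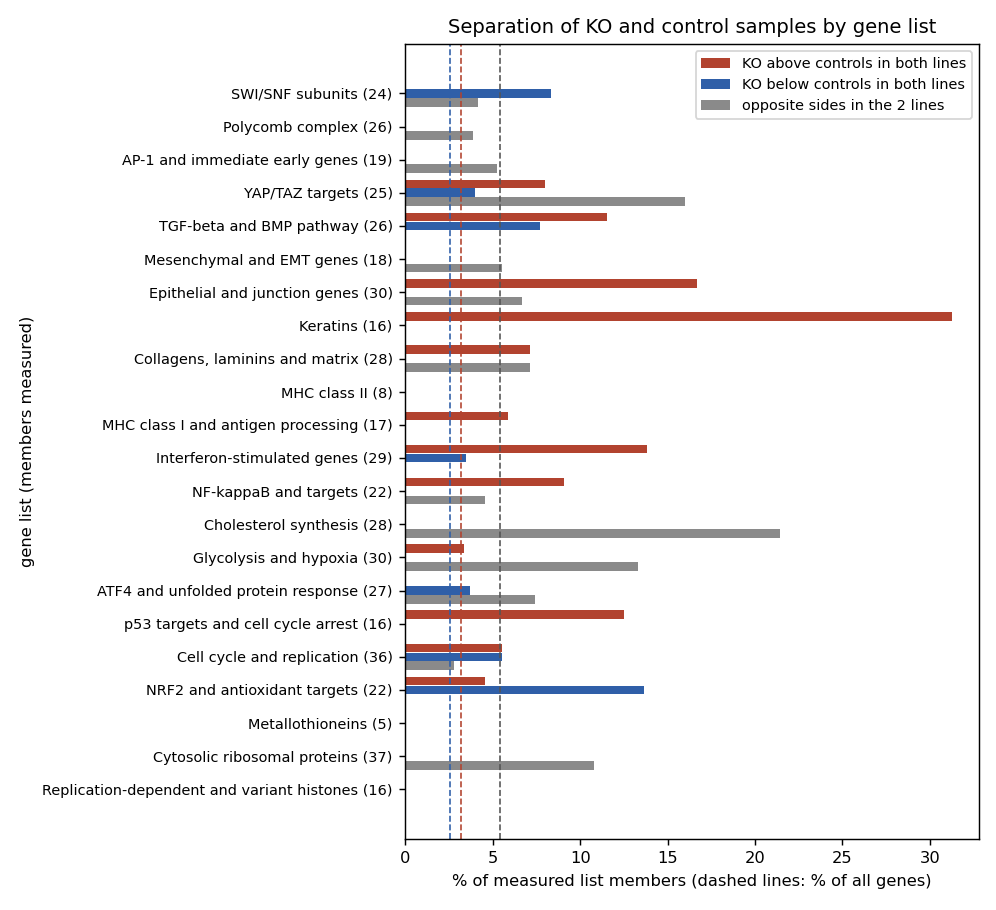
Share of each list's measured genes (x axis, %) whose KO samples all lay above (red) or below (blue) the controls in both lines, or on opposite sides (gray); dashed lines give the same shares over all genes. Keratins have the longest red bar (31.3%) and cholesterol synthesis the longest gray one (21.4%).

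A further 82 common genes fell outside the rule for naming. They were gathered by role after their values were seen, and only additive changes are given. Of all common genes 80.8% were higher, and these roles were not counted over all measured genes. Protease inhibitors included TIMP3 (0.95), TIMP2 (0.57), LXN (0.87) and CST7 (0.63), all higher, as TFPI2 was. Of the adhesion and surface proteins, PCDH1 (0.98), L1CAM (0.91), ITGB4 (0.65), LSR (0.65) and BCAM (0.59) were higher. PCDH1 was uneven, with 0.14 in MDA-MB-468, against 1.82 in MDA-MB-231. Complement C3 (1.05) and the chemokine CXCL16 (0.72), both of innate immunity, were higher, as was the serine/threonine kinase PIM1 (0.70). Transcription factors and cofactors included TCF7L1 (0.90), a repressor in Wnt signalling, LBH (0.74), TFCP2L1 (0.67), TFEB (0.60), which drives lysosomal genes, and CITED4 (0.57). Regulators of small GTPases and their effectors included RAB3IL1 (0.91), PAK6 (0.79), DIRAS1 (0.56) and ARHGEF4 (0.54), all higher, and RGL1 (-0.51). Cytoskeletal genes included TNNT1 (1.07) and TUBB3 (0.60), and the long noncoding RNA NEAT1, a scaffold of paraspeckles, was at 0.74. Metabolic genes included TYMP (0.71), GFPT2 (0.69), ISYNA1 (0.69) and ACSS1 (0.56). On the lower side stood NAV2 (-0.76), ANXA6 (-0.68), ASPH (-0.66), TMEM156 (-0.55), EFEMP1 (-0.53) and TRIM3 (-0.51).

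Position and base composition were not used in choosing the genes. Of 122 common genes with a location, 19 (15.6%) were on chromosome 19, which held 7.39% of all located genes, and 13 (10.7%, against 6.22%) on chromosome 11. SMARCA4 is itself on chromosome 19. Within 1 Mb of it, 49 other genes were measured, of which 0 were common, 7 were lower in both lines, and 1 was called, PDE4A (0.52), which was separated in MDA-MB-468 only. The median GC content of transcripts was 59.4% in common higher genes and 48.1% in common lower genes, beside 49.9% over 10834 genes.

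Over all genes the change rose with GC content in both lines, with a Spearman correlation of 0.30 in MDA-MB-468, 0.29 in MDA-MB-231 and 0.42 for the additive change (10834 genes, which share the libraries and are not independent). Genes on the same side above the controls had a median GC of 58.9%, and those below 43.0%, whereas genes on opposite sides had 50.3% and 50.2%. After removal of the trend with GC and length, 112 genes were called in place of 165 in the same set, and the genes on the same side went from 640 (350 above, 290 below) to 536 (220 above, 316 below). Those on opposite sides went from 609 to 698. Of the 122 common genes in this set, 83 were still called and 74 were still called on the same side, TFPI2, JAG2, CD22, DMKN, SMARCA4, C6orf141 and SPDEF among them. Still called, but no longer on the same side in both lines, were GDF15, ID1, IGFBP3, TGFB1, CXCL16, GFPT2, LBH, ROBO3 and TMEM156. The remaining 39 were no longer called. Among them were CLDN3, KRT17, KRT80, LTBP3, TNFAIP2, AKR1C3, CLGN and SYT8, and, of the genes grouped by role, TIMP2, CST7, PCDH1, L1CAM, BCAM, TFEB, CITED4, DIRAS1, ARHGEF4, RGL1, TUBB3 and ACSS1. The part of GC content in the common change was otherwise not tested.

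**Figure D5:**
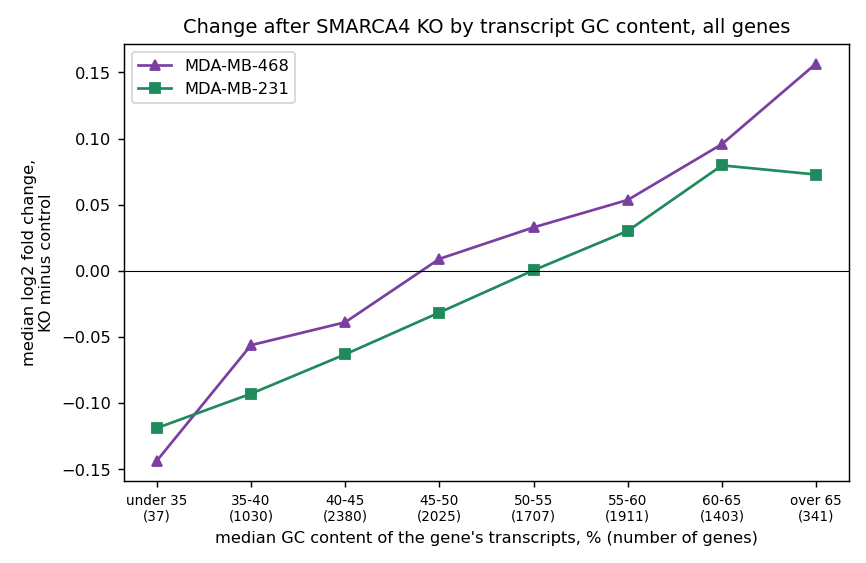
Median log2 fold change after KO (y axis) in MDA-MB-468 (triangles) and MDA-MB-231 (squares) by GC content of the transcripts (x axis, %, with the number of genes). Both lines climb from below 0 in GC-poor genes to above 0 in GC-rich genes, and the lowest class holds 37 genes.

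Promoters are described as a feature the rule did not use. That these genes moved the same way in both lines was fixed by the choice. RefSeq promoters of 300 bases (250 before to 50 after the start, GRCh38.p14) were matched for 65 common higher genes, 20 common lower genes and 8792 genes in all. Their median GC content was 72.3%, 68.3% and 65.7%. Letters of 4 motifs were searched on both strands. The AP-1 letters TGANTCA occurred in 4 promoters of higher genes (6.15%), 2 of lower genes (10%) and 4.54% of all promoters. The TEAD letters GGAATG were in 8 (12.3%), 1 (5%) and 10.7%, and the TATA letters TATAAA in 6 (9.23%), 2 (10%) and 5.20%. The SP1 letters GGGCGG, which can overlap one another, were in 54 (83.1%), 12 (60%) and 71.7%. These are matches of letters, not sites, and no test was made.

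Promoters of the 2 higher genes and of the 2 lower genes other than SMARCA4 with the largest change in the line where it was smaller are printed, in the direction of transcription, with matched letters in capitals. TFPI2 (chr7:93890704-93891003, minus strand) had 1 AP-1 match, at position -87 from the start, and 2 SP1 matches. JAG2 (chr14:105168727-105169026, minus strand) had 2 SP1 matches. C6orf141 (chr6:49550418-49550717, plus strand) had 1 AP-1 match, at -168, and SPDEF (chr6:34556280-34556579, minus strand) had 1 TEAD match, after the start. Their GC contents were 65.3%, 79.7%, 58.3% and 52.0%.
TFPI2 promoter: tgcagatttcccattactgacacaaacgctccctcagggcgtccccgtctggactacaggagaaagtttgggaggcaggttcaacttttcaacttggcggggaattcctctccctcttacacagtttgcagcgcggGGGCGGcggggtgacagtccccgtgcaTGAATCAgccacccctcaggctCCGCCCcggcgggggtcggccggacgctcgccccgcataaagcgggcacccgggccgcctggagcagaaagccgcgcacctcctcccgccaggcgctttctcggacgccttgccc
JAG2 promoter: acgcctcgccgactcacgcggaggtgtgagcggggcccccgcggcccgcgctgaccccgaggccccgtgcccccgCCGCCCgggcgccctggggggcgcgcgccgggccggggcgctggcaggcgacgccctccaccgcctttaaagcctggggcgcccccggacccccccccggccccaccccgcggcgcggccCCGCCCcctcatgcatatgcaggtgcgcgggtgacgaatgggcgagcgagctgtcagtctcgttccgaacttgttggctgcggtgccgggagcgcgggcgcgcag
C6orf141 promoter: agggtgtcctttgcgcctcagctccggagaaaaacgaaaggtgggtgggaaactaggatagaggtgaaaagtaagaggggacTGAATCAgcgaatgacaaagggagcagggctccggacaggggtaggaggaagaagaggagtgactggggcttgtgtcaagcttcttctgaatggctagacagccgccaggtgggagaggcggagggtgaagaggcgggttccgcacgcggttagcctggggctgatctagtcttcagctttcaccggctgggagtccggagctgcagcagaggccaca
SPDEF promoter: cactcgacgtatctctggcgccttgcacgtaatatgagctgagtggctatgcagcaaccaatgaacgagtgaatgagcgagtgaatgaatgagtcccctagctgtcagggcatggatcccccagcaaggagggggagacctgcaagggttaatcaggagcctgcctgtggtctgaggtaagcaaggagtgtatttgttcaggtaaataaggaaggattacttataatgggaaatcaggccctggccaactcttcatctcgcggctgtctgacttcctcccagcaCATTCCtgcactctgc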

How the data were processed

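Per the study's methods and the labels, the authors sequenced stranded mRNA libraries, trimmed the reads, aligned them to hg19 with STAR and estimated FPKM per gene with RSEM. Genes whose FPKM had an average or a standard deviation below 1 were left out by the authors, who deposited the rest, 11529 genes, as log2(FPKM + 1). On the values themselves the smallest mean was 1.07 and the smallest SD 1.00. The table gives no counts, so depth is unknown and no counting interval was computed. A date had replaced the gene symbol in 18 rows, which were tested but are not named.

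The additive model (cell line and genotype) and the interaction were fitted with limma 3.58.1 in R 4.3.3 on the deposited log2 values (lmFit, eBayes without a trend), with Benjamini-Hochberg adjustment over all genes. Common genes named in full are the 15 of each direction with the largest change in the line where it was smaller, SMARCA4, list members among the common genes, and the 3 genes on opposite sides with the largest such change. The genes and lists were chosen with earlier results of these data known. GC content, length and positions came from GENCODE v44 lifted to GRCh37 (10834 genes matched, 690 through older names), and promoters from RefSeq. On simulated data with 200 genes changed by 0.75 in both lines, the additive fit called 197 with 1 false call. These counts cover only genes with an equal shift in both lines, not genes that move in 1 line. The reliability of the common calls in the deposited data was not tested. Alternatives covered scaling, pseudocount, filters, GC and length correction (loess, span 0.3), replicate blocks and leaving out each sample.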

Additional observations from a re-analysis of the deposited data

Results flagged for a closer look

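By the interaction test (limma, Benjamini-Hochberg adjusted p under 0.05) the KO effect was unequal in the lines for the genes below, each given as the change in MDA-MB-468 minus that in MDA-MB-231 on the log2 scale. They are those named in the text, 26 of the 38 common genes that passed among them. Common higher genes with a larger rise in MDA-MB-468 were TNFSF9 (0.97), TGFB1 (1.02), TNNT1 (1.07), TIMP3 (1.0), GFPT2 (0.91), PIM1 (0.57), TUBB3 (0.52) and TCF7L1 (0.51). Those with a larger rise in MDA-MB-231 were LTBP3 (-0.77), CLDN3 (-0.49), KRT15 (-0.66), TNFAIP2 (-0.40), PCDH1 (-1.68), CXCL16 (-0.82), CST7 (-0.81), NEAT1 (-0.72), TYMP (-0.52) and ARHGEF4 (-0.48). Common lower genes with a larger fall in MDA-MB-231 were SMARCA4 (0.41), ARHGDIB (1.11), GALNT3 (0.65) and TMEM156 (0.67), and those with a larger fall in MDA-MB-468 were STS (-0.46), AKR1C3 (-1.38), NAV2 (-0.86) and ASPH (-0.67). SMARCA4, the targeted gene, was thus among the genes whose fall was unequal. Genes on opposite sides of the controls were TNC (2.16), SOCS2 (2.37), ALDH3A1 (-2.16), CTGF (1.96), NT5E (1.45), FJX1 (0.76), AJUBA (0.74) and SMARCB1 (0.45). ABCC4 (0.83) was just outside the limit for the additive change.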

How the results depend on the processing

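The additive model called 166 genes, 125 of them on the same side in both lines. Called genes numbered 260 in the 4-group model, 270 at an unadjusted p and 18 at a change over 1. Without 1 sample the count of called genes was 121 to 177 and that of common genes 109 to 146. Of the 125 common genes, 82 were called in each of these 12 fits. Requiring a gap over 0.1 left 201 genes on the same side (663 with any gap), and leaving out a sample, which loosens the condition, gave 743 to 962. SMARCA4 stayed called in every alternative, at -1.42 to -1.32 without 1 sample.

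Titles give control and KO samples the same replicate numbers. Same-numbered samples deviated together in MDA-MB-468 (r of 0.25, 0.16 and 0.12, each KO sample, but not control 3, correlating best with its own number) but not in MDA-MB-231 (-0.05, 0.07 and -0.11), so over both lines they were not taken as pairs. With the replicate block by title number the additive model called 96 genes (89 of them common). That block with GC and length correction gave 52 (31 higher, 21 lower, 50 common), and the p number of the descriptions as block 62 (60 common). In MDA-MB-468 the p numbers do not follow the title numbers. KO sample 1 and control sample 3 of that line share their p number with no other sample. They were joined in a block of their own, though they deviated in opposite directions (r of -0.18). Within MDA-MB-468 the title-number block called 241 genes (247 without). Within MDA-MB-231 limma called 0 with this block (426 without, and 576 at an unadjusted p under 0.05 and a change over 0.5). Among named genes the title-number block ended 7 calls (AKR1C3, CLDN3, ID1, KRT80, LTBP3, SYT8 and TGFB1), the p-number block 18, and the block with GC and length correction 14.

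Within 1 line, leaving out a sample gave 0 to 474 genes in MDA-MB-468 (0 without KO or control 2, 5 without KO 3, 12 without control 3, 27 without control 1, 474 without KO 1) and 99 to 311 in MDA-MB-231, with 99 without KO 2, 173 without KO 1, 264 without control 3, 280 without control 2 and 281 without control 1. The difference between lines passed for 924 to 1897 genes (1699 with all samples), with 924 without KO 2 and 1038 without control 1 of MDA-MB-468, and 962 without KO 2 and 995 without KO 1 of MDA-MB-231. The cause of these shifts was not tested. Over 48 other named genes and 1004 refits, 868 kept their side of the threshold, 117 lost a call, 19 gained one and 0 reversed direction. The set of 10834 genes with a GC content, used uncorrected as the comparator of the GC correction, was added after the data were seen. Unknown depth limits statements on genes near 0.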
